A study of Mus musculus with 48 samples.

Results

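The genes described here were 10 mouse genes of the protein folding machinery of the endoplasmic reticulum (ER) and of the unfolded protein response (UPR), namely *Hspa5*, *Hsp90b1*, *Calr*, *Canx*, *Pdia4*, *Pdia6*, *Xbp1*, *Atf6*, *Ern1* and *Herpud1*. They were chosen by name, through the GENCODE symbol of each gene identifier. All 10 were found among the 20622 genes with RNA values and the 16269 genes with RPF values (ribosome-protected fragments, the stretches of mRNA that a translating ribosome shields from nuclease). Each of the 10 passed the filter on low counts in all 30 comparisons.

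The livers came from male mice aged 2 to 4 months. Every mouse, wild-type mice included, received AAV8.TBG.PI.Cre.rBG, a virus whose TBG promoter drives Cre in hepatocytes, and was taken 4 or 10 days later. The genotypes were wild-type (WT), Ctnnb1ex3/+ (B), in which Cre removes exon 3 of 1 *Ctnnb1* allele and leaves a stabilised β-catenin, R26-LSL-MYC (M), in which Cre switches on a MYC transgene, and Ctnnb1ex3/+; R26-LSL-MYC (BM), which carries both. Each genotype had 3 mice per day, and RPFs and cytoplasmic RNA of each of the 24 livers were sequenced. Whole liver was lysed, so cells other than hepatocytes were included and kept their alleles unrecombined. In such tissue, fewer cells of a type and less RNA per cell cannot be told apart.

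Secretory proteins enter the ER through a translocation channel and are folded there by chaperones, lectins that bind their sugar chains, and enzymes that form disulfide bonds. When unfolded proteins build up, the sensors IRE1α (encoded by *Ern1*), ATF6 and PERK start the UPR. IRE1α splices *Xbp1* mRNA, cleaved ATF6 moves to the nucleus, and both give transcription factors that raise chaperone genes, while PERK slows translation. Hepatocytes secrete most plasma proteins, and so carry a large ER load.

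The ER stress response element (ERSE) is the promoter motif through which ATF6 and XBP1 are known to act, together with the factor NF-Y. It was searched on both strands as CCAAT, 9 bases of any kind and CCACG, in promoter windows of 250 bases before to 50 bases after each gene's start (RefSeq, GRCm38.p6). Of the 10 genes, 9 had a window. An ERSE was found in *Hspa5*, *Hsp90b1*, *Calr*, *Canx* and *Pdia6*, which is 5 of 9, against 37 of all 27025 genes with a window (0.137%). *Herpud1* held the related ERSE-II (ATTGG, 1 base of any kind and CCACG), found in 12 of the 27025 genes (0.044%). The 2 motifs overlapped in none of the 9. TGACG followed by TGG, a core bound by XBP1 and ATF6, was in 0 of 9 windows and in 193 of all genes (0.714%). The sites are shown for the members that hold an ERSE or ERSE-II. *Pdia4*, *Xbp1* and *Ern1* held neither, and *Atf6* had no window. Members and motifs were both chosen as known parts of the UPR, so the share among the members is background and not a result of these data. Each is read along the gene's strand, with the motif in capitals, and a motif on the opposite strand appears as its reverse complement.
*Hspa5*, chr2:34772020-34772048, 65 to 47 bases before the start: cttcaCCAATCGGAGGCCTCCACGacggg
*Hsp90b1*, chr10:86705633-86705661, 212 to 194 bases before: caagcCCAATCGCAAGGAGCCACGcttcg
*Hsp90b1*, chr10:86705528-86705556, 107 to 89 bases before, opposite strand: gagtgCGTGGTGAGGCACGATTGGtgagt
*Calr*, chr8:84847070-84847098, 162 to 144 bases before, opposite strand: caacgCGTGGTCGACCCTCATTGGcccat
*Canx*, chr11:50325795-50325823, 145 to 127 bases before: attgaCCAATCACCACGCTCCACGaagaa
*Pdia6*, chr12:17266486-17266514, 98 to 80 bases before: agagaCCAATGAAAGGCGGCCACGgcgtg
*Herpud1* (ERSE-II), chr8:94386368-94386396, 52 to 42 bases before: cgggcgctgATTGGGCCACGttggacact
These matches describe the letters of the windows only, and binding was not measured.

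RPF libraries held 9742197 to 14380713 counts and RNA libraries 3254141 to 6540116. *Glul*, a β-catenin target, was at 3052 to 5199 RPF CPM (counts scaled to a common library size with TMM factors) in the B mice and 1625 to 4219 in the BM mice, above the 507 to 860 of the WT mice. BM mouse 1 of day 10 stood apart from mice 2 and 3 of its group, with a correlation of log2 RPF CPM over 8946 genes of 0.940 and 0.926 with them, against 0.992 between mice 2 and 3. In that order these 3 mice had 29.3, 9.2 and 6.38 RNA CPM of *Axin2*, another β-catenin target, and 58.1, 121.1 and 164 RPF CPM of *Myc*, to which transgene reads may align. Values of BM at day 10 are from all 3 mice unless the text says that this mouse was left out.

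Library composition differed between genotypes. The summed RPF CPM of 5 hepatocyte markers (*Alb*, *Ttr*, *Apoa1*, *Hnf4a* and *Cps1*) ran from 68280 to 78180 in WT at day 4, 33840 to 40020 in BM at day 4, 68230 to 87070 in WT at day 10, and 31490 to 44390 over the B, M and BM mice of day 10. Without TMM factors, with values scaled by library totals only, the median log2 RPF change of all genes against WT moved up by 0.11 (B, day 4) to 0.41 (BM, day 4), and the median RNA change by 0.18 (M, day 10) to 0.52 (BM, day 4). TMM values therefore state each change relative to the bulk of genes, and calls that turn with this choice are named below. Of other cells, the 6 Kupffer markers summed to 532 to 619 RPF CPM in WT and 315 to 332 in BM at day 4, and to 411 to 589 and 655 to 723 at day 10. In M at day 4 they ran from 338 to 1001 RPF CPM and from 141 to 446 RNA CPM (the median mice at 456 and 196), with mouse 2 the highest, and without that mouse the count of members called in M at day 4 was 7 in RPFs, against 8 with it, and 5 in RNA, against 7. Leaving out any 1 mouse of that comparison, M or WT, gave 6 to 7 in RPFs and 5 to 7 in RNA. The 6 stellate markers summed to 682 to 748 in WT and 451 to 546 in BM at day 4, and to 732 to 832 and 445 to 642 at day 10, when B was at 414 to 573. In RNA of day 10 they summed to 462 to 528 CPM in WT, 228 to 273 in B and 193 to 245 in BM. The 6 endothelial markers summed to 697 to 778 and 557 to 618 at day 4, and to 693 to 828 and 563 to 752 at day 10, and the 5 cholangiocyte markers to 85.2 to 133 and 36.2 to 54.1, and to 43.7 to 83.7 and 35.6 to 63.5. Markers of B and plasma cells, which are also rich in ER, summed to at most 4.27 RPF CPM in any mouse. All 5 of them that had an RPF transcript were detected in each group, and the sixth, *Tnfrsf17*, had none. Whether these shifts play a part in the results below was not tested.

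Levels of different genes were compared as footprints per codon of the counted coding sequence, scaled to the same sum over genes in each mouse. In WT livers at day 4, *Calr* (1501 to 1633) and *Hspa5* (1300 to 1697) stood highest and overlapped, at ranks 88 and 92 of 16196 genes by mean. *Hsp90b1* came next (1040 to 1259), below each of those mice. *Canx* (573 to 622), *Pdia6* (507 to 581) and *Pdia4* (436 to 562) followed, each overlapping its neighbour, and then *Herpud1* (214 to 295) and *Xbp1* (138 to 240), which overlapped too. The sensors were lowest, with *Atf6* at 32.7 to 39.5 and *Ern1* at 24.1 to 26.9, and those ranges did not overlap. In BM at day 10 the 3 chaperones *Hspa5*, *Hsp90b1* and *Calr* were still the highest of the 10, at means of 836, 779 and 722, and *Ern1* was the lowest at 4.41 to 12.5. Its rank by mean had gone from 3338 in WT at day 4 to 7030.

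Between the 2 days in WT mice, none of the 10 genes was called in RPFs or in RNA, where 4.6% and 2.43% of all genes tested were. Called here means an adjusted p under 0.1 in edgeR's quasi-likelihood F test, adjusted over all genes by Benjamini-Hochberg. At an unadjusted p under 0.05 there were 3 of the 10 in RPFs and 1 in RNA, beside 1789 of 10899 and 1291 of 11026 genes tested. DESeq2 called *Pdia6* (log2 change -0.36) and *Herpud1* (-0.36), both lower at day 10, in RPFs and 0 in RNA, and edgeR called *Pdia6* once WT mouse 2 of day 10 was left out.

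At day 4, RPFs of most of the 10 genes were lower in each mutant genotype than in WT. In B, 6 were called, all lower, where 12.6% of all genes were called. In M, 8 were called, all lower (33.2% of genes). In BM, 7 were called, all lower (50.8% of genes). The median log2 change of the 10 was -0.44 (B), -0.40 (M) and -0.34 (BM), beside -0.01, 0.01 and 0.01 for all genes tested. With library totals the medians of the 10 were -0.33, -0.19 and 0.07, so that of BM changed sign. The 3 comparisons share their WT mice, so they are not independent of each other. Scaled by library totals, the calls were 4 lower in B, 6 lower and 1 higher in M, and 3 lower (*Hspa5*, *Xbp1* and *Herpud1*) and 2 higher (*Canx* and *Atf6*) in BM. Under that scaling 15.2%, 44.3% and 68.2% of all genes were called, in the same order, with 3.8%, 6.13% and 8.7% of all genes lower and the rest of the called genes higher. In B the count was 3 without mouse 2 (7.72% of all genes called) and 1 in 1 fit over all mice (4.77%).

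At day 10 the genotypes differed more from each other. In B, only *Pdia4*, *Pdia6* and *Herpud1* were called, all lower (25.3% of genes called). In M, *Pdia4*, *Xbp1* and *Herpud1* were called, all lower (19.3% of genes), with 1 call without M mouse 2 or WT mouse 2 (12.2% and 13.3% of genes) and 0 without WT mouse 3 (9.93%). In BM, 8 of the 10 were called, all lower (46.8% of genes), and *Atf6* and *Herpud1* were not. Their median log2 changes were -0.29 (B), -0.39 (M) and -1.20 (BM), beside 0.01, 0.01 and 0.03 for all genes. With library totals these medians were -0.03, -0.16 and -0.83. Library totals also gave 1 lower in B (*Herpud1*), 1 lower in M (*Xbp1*), and 7 lower and 1 higher (*Atf6*) in BM, where 5.12%, 3.35% and 10.9% of all genes were lower and 33.9%, 30.5% and 43.3% higher. Without BM mouse 1 the 8 were again lower and *Atf6* was called higher (66.2% of genes).

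**Figure D1:**
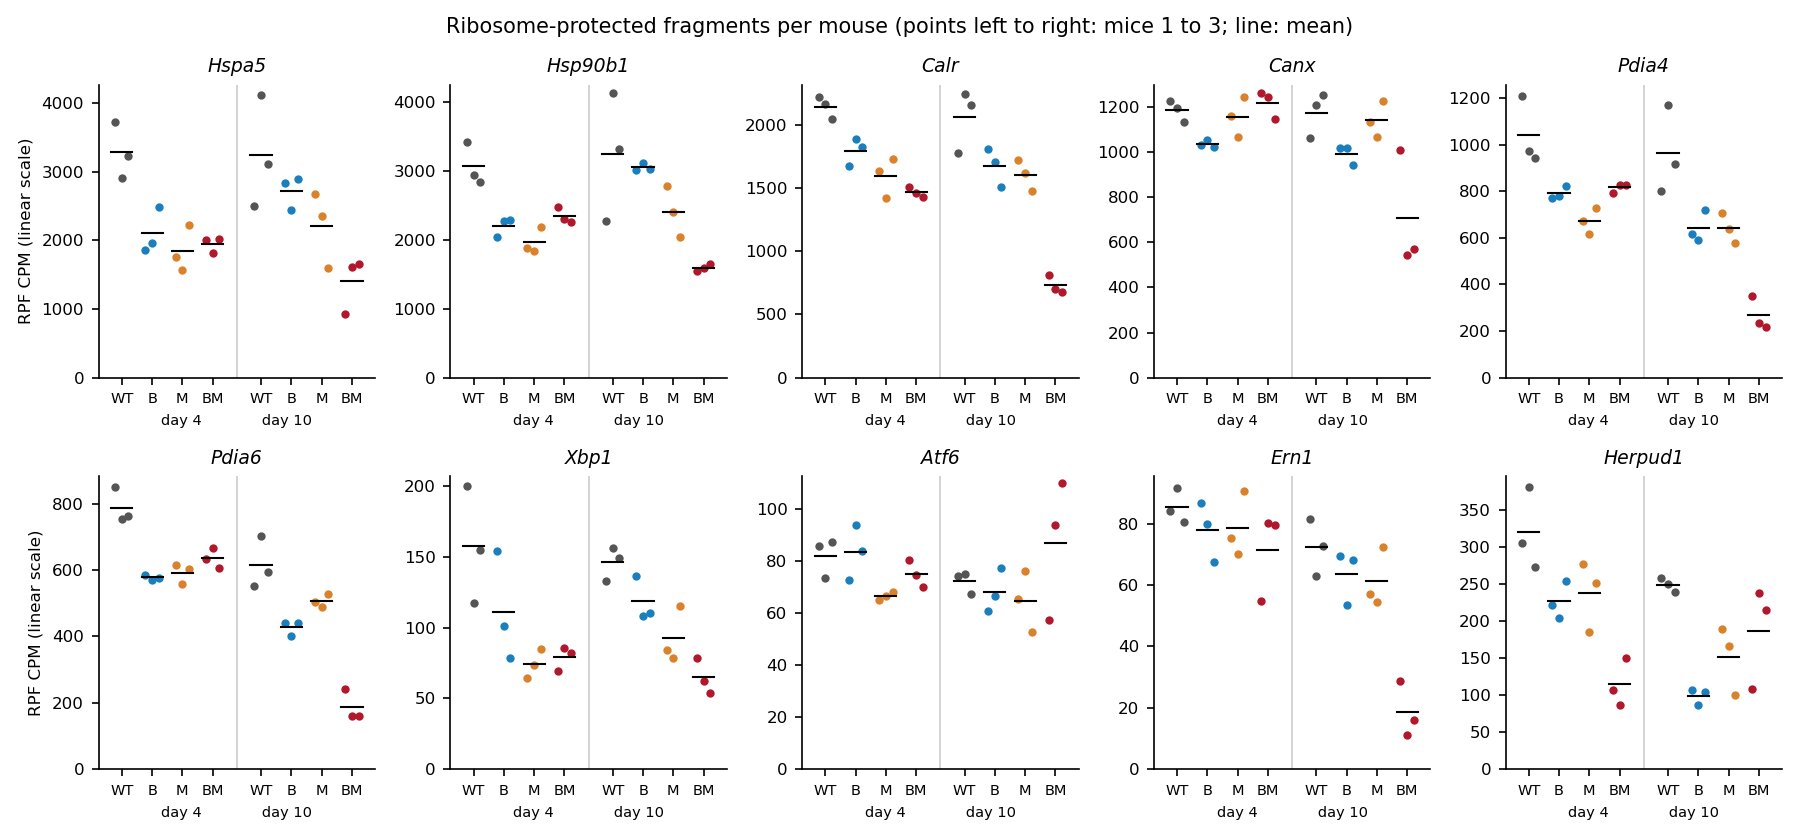
RPF CPM (vertical axis, linear, from 0, with TMM scaling) of the 10 genes in each of the 24 mice; points from left to right are mice 1 to 3 of a group and the line is their mean. The 3 BM mice of day 10 lie below every WT mouse of that day for *Hspa5*, *Hsp90b1*, *Calr*, *Canx*, *Pdia4*, *Pdia6*, *Xbp1* and *Ern1*, whereas for *Herpud1* the group mean of day 10 is lowest in B, whose mice overlap with M mouse 3 and lie just below BM mouse 1.

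*Hspa5* encodes BiP, the ER's HSP70 chaperone, which also holds the UPR sensors inactive. At day 4 it had 3734, 2915 and 3235 RPF CPM in the WT mice, 1859, 1970 and 2482 in B, 1757, 1565 and 2229 in M, and 2002, 1818 and 2020 in BM. Every mutant mouse lay below every WT mouse, with log2 changes of -0.67 ± 0.13 (SE, here and below) in B, -0.80 ± 0.14 in M and -0.73 ± 0.11 in BM (adjusted p = 0.00841, 0.00203 and 0.000207). At day 10 the values were 2503, 4116 and 3120 in WT, 2841, 2445 and 2899 in B, 2675, 2353 and 1604 in M, and 935, 1618 and 1654 in BM. WT mice were spread widely at that day, B and M overlapped them, and BM did not. The changes were -0.27 ± 0.19 in B and -0.55 ± 0.24 in M, neither called, and -1.22 ± 0.29 in BM (adjusted p = 0.0151). BM mouse 1 had the lowest value, and the call held without it (adjusted p = 0.00147).

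*Hsp90b1* encodes GRP94, the ER's HSP90 chaperone. At day 4 it had 3421, 2940 and 2838 RPF CPM in WT, 2033, 2269 and 2289 in B, 1876, 1837 and 2190 in M, and 2472, 2302 and 2256 in BM, so that no mutant mouse reached the WT range. It fell by 0.50 ± 0.10 in B, 0.61 ± 0.10 in M and 0.36 ± 0.10 in BM on the log2 scale, but in BM the value with library totals was 0.05. At day 10 the B mice (3018 to 3112) and the M mice (2036 to 2784) overlapped the WT mice (2278, 4123 and 3318), and neither was called. The BM mice, at 1550, 1583 and 1646, were below all of them, with a log2 change of -1.04 ± 0.24 (adjusted p = 0.0132).

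*Calr* and *Canx* encode the lectin chaperones calreticulin, which is soluble, and calnexin, which sits in the membrane. *Calr* had 2218, 2166 and 2048 RPF CPM in WT at day 4, 1675 to 1888 in B, 1417 to 1727 in M and 1505, 1462 and 1430 in BM, and fell by 0.27 ± 0.09, 0.40 ± 0.09 and 0.52 ± 0.08 on the log2 scale. The call in B was lost without any 1 of its 6 mice (adjusted p 0.135 to 0.244). At day 10 *Calr* was at 1779, 2240 and 2153 in WT and 815, 705 and 681 in BM (log2 change -1.50 ± 0.18, adjusted p = 0.00116), and was not called in B (1510 to 1807) or M (1475 to 1717). *Canx* differed by at most 0.21 on the log2 scale from WT at day 4 and was called in no genotype. With library totals it was higher in M (0.20) and BM (0.48). At day 10 its BM mice had 1011, 542 and 572 RPF CPM against 1065, 1211 and 1253 in WT, so that mouse 1 was near the WT range and mice 2 and 3 were far below it. The log2 change was -0.75 ± 0.26 (adjusted p = 0.0518), and -1.09 without mouse 1 (adjusted p = 7.43e-05). Leaving out any other mouse ended this call (adjusted p 0.104 to 0.184).

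*Pdia4* and *Pdia6* encode protein disulfide isomerases, which form and rearrange disulfide bonds. *Pdia4* had 1209, 975 and 941 RPF CPM in WT at day 4, 771, 781 and 823 in B, 672, 615 and 728 in M, and 794, 829 and 829 in BM. All mutant mice were below the WT mice, and the log2 changes were -0.41 ± 0.11, -0.60 ± 0.11 and -0.32 ± 0.10, the last of which was 0.09 with library totals. At day 10 it had 799, 1168 and 919 in WT, 615, 589 and 718 in B, 637, 708 and 577 in M, and 352, 236 and 219 in BM, again without overlap with WT. It was called in each genotype, at -0.60 ± 0.16 in B, -0.58 ± 0.16 in M and -1.86 ± 0.24 in BM (adjusted p = 0.0335, 0.0524 and 0.00144). At day 4 *Pdia6* fell by 0.47 ± 0.08 (B), 0.39 ± 0.08 (M) and 0.29 ± 0.08 (BM) on the log2 scale, and BM was at 0.12 with library totals. At day 10 it had 552, 704 and 594 RPF CPM in WT, 441, 402 and 442 in B, 503, 489 and 527 in M, and 243, 160 and 159 in BM. No mutant mouse reached a WT mouse, and the changes were -0.54 ± 0.13 in B, -0.28 ± 0.12 in M, which was not called, and -1.74 ± 0.21 in BM (adjusted p = 0.0186, 0.175 and 0.0012).

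*Ern1* encodes the sensor and nuclease IRE1α. At day 4 it was not called in any genotype, and its RPFs ran from 80.6 to 91.5 CPM in WT, 67.4 to 86.6 in B, 70.1 to 90.6 in M and 54.7 to 80.3 in BM. At day 10 it had 81.5, 63.0 and 72.6 RPF CPM in WT, 69.5, 53.3 and 68.1 in B, 57.1, 54.5 and 72.4 in M, and 28.7, 11.2 and 16.0 in BM. Only the BM mice lay apart from WT, and the fall, by 1.97 ± 0.32 on the log2 scale, was the largest of the 10 in size (adjusted p = 0.00315). Without BM mouse 1 it was -2.43. The BM libraries held 494, 145 and 194 *Ern1* RPF counts.

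*Xbp1* encodes the factor whose mRNA IRE1α splices. Its RPFs were counted over a coding sequence of 267 codons, the reading frame of the unspliced mRNA, so these counts do not tell the spliced form apart. At day 4 it had 200, 118 and 155 RPF CPM in WT, 154, 101 and 78.3 in B, 64.5, 73.8 and 84.9 in M, and 69.5, 85.5 and 82.0 in BM. M and BM were below every WT mouse and B overlapped. The log2 changes were -1.06 ± 0.17 in M and -0.97 ± 0.16 in BM (adjusted p = 0.00176 and 0.000601), and -0.52 ± 0.24 in B, which was not called. At day 10 *Xbp1* had 133, 157 and 149 in WT, 84.2, 78.6 and 115 in M, and 78.6, 62.4 and 54.1 in BM, with falls of 0.66 ± 0.15 in M and 1.19 ± 0.17 in BM on the log2 scale (adjusted p = 0.0279 and 0.00226). Its lower level in M and BM kept its direction under library totals at both days.

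*Atf6* encodes the membrane-bound factor that is cut to become active, and it was called in M at day 4 alone, where 65.1, 66.5 and 68.1 RPF CPM stood against 85.7, 73.3 and 87.4 in WT (log2 change -0.28 ± 0.08, adjusted p = 0.0359), and this call was lost without M mouse 1 (adjusted p = 0.115), WT mouse 1 (0.119) or WT mouse 3 (0.123). At day 10 in BM its values were 57.5, 94.0 and 109.9 against 67.4 to 75.1 in WT, with mouse 1 below the WT mice and mice 2 and 3 above them. The change was 0.26 ± 0.24 with all mice (adjusted p = 0.422) and 0.48 without mouse 1 (adjusted p = 0.00511).

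*Herpud1* encodes a small membrane protein of the machinery that returns misfolded proteins to the cytosol for degradation (ERAD), and is a well-known UPR target. At day 4 it had 306, 382 and 273 RPF CPM in WT, 222, 205 and 255 in B, 278, 186 and 252 in M, and 107, 86.9 and 150 in BM. The BM mice were far below the rest, with a log2 change of -1.45 ± 0.18 (adjusted p = 7.65e-05), and *Herpud1* fell by 0.51 ± 0.13 in B and 0.40 ± 0.16 in M. At day 10 the order was another one: 258, 251 and 240 in WT, 107, 86.6 and 105 in B, 190, 166 and 101 in M, and 108, 239 and 215 in BM. B was now the lowest genotype by mean (log2 change -1.34 ± 0.12, adjusted p = 0.000212), M was at -0.71 ± 0.21 (adjusted p = 0.0651), and BM was not called at -0.42 ± 0.29, or -0.15 without mouse 1, whose value was the lowest of the 3.

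**Figure D2:**
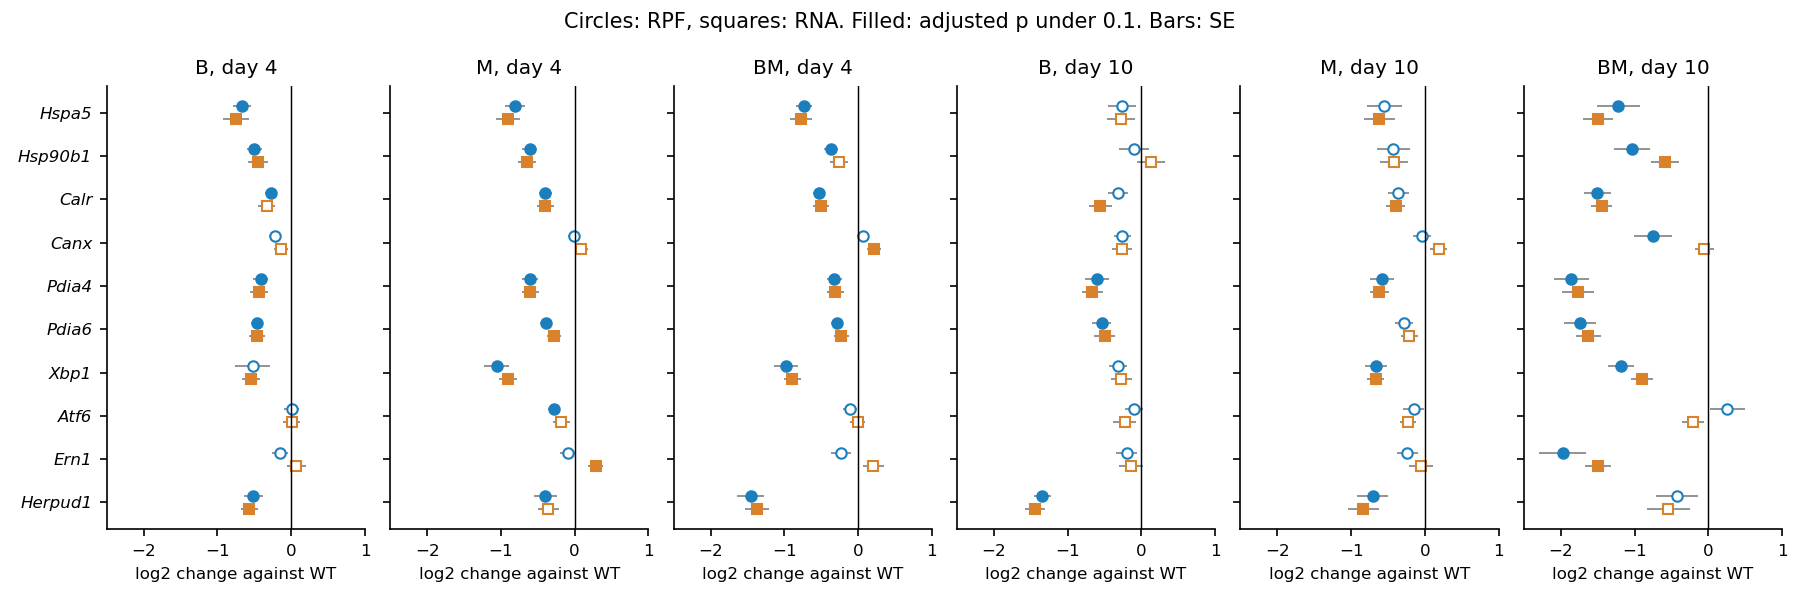
Log2 change against WT (horizontal axis) of the 10 genes in the 3 mutant genotypes at each day, for RPFs (circles) and RNA (squares); bars are the SE of the fit and filled symbols passed an adjusted p under 0.1. At day 10 in BM, *Pdia4*, *Pdia6*, *Calr* and *Ern1* lie at -1.4 or lower in both kinds of library, and *Canx* is apart between RPFs (-0.75) and RNA (-0.05).

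Direct comparisons asked whether the 2 oncogenes together differed from either alone. At day 4, BM against B called 3 of the 10 (44.7% of genes), with *Herpud1* (-0.94 ± 0.17) and *Calr* (-0.25 ± 0.09) lower and *Canx* (0.28 ± 0.08) higher. With library totals *Calr* was at 0.05, and 4 members were called higher and 1 lower. Of 11373 genes, 5630 were then higher and 812 lower. BM against M called *Herpud1* lower (-1.07 ± 0.20) and *Pdia4* higher (0.26 ± 0.09), where 38% of genes were called, and 1 of the 2 without M mouse 1 or M mouse 2 (28.1% and 30.8% of genes). Under library totals BM against M gave 7 higher and 1 lower, where 39.0% of all genes were higher and 9.33% lower. Thus *Herpud1* was the 1 member lower in BM than in both B and M at day 4 under both scalings.

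At day 10, BM was lower than B in 7 members (36.5% of genes called in either direction), all but *Canx*, *Atf6* and *Herpud1*. The largest differences were in *Ern1* (-1.75 ± 0.32), *Pdia4* (-1.23 ± 0.21) and *Pdia6* (-1.18 ± 0.20). *Herpud1* was higher in BM than in B (0.94 ± 0.30, adjusted p = 0.0543). Leaving out BM mouse 1 gave 8 lower and 2 higher than in B (61.1% of genes), and 7 and 2 than in M (59.3% of genes). BM was lower than M in 7 members too (32.6% of genes), with *Ern1* (-1.73 ± 0.32), *Pdia6* (-1.45 ± 0.20) and *Pdia4* (-1.27 ± 0.22) in the lead. That count was 4 without BM mouse 2, BM mouse 3, M mouse 1 or M mouse 2, where the share of all genes called fell as well, to 14.5%, 18.4%, 12.7% and 12.9%. *Hspa5* was lower in BM than in B (-0.93 ± 0.25, adjusted p = 0.0358) and was not called against M (-0.67 ± 0.30, adjusted p = 0.147).

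Whether an effect against WT changed between the days was tested as an interaction over 12 mice. For BM, 7 of the 10 were called in RPFs (35.6% of genes). The effect was lower at day 10 for *Ern1* (by -1.72 ± 0.37), *Pdia4* (-1.51 ± 0.26), *Pdia6* (-1.43 ± 0.23), *Calr* (-0.95 ± 0.18), *Canx* (-0.79 ± 0.27) and *Hsp90b1* (-0.65 ± 0.26), and higher for *Herpud1* (1.06 ± 0.38). The direction of these 7 was the same with library totals, which moved the median of all genes by -0.06. Without BM mouse 1 of day 10 these 7 were called and *Atf6* with them, higher at day 10 (0.58), where 57.4% of genes were called, and 4 were called without BM mouse 2 of day 10 or WT mouse 3 of day 10 (27.7% and 29.1% of genes). *Hspa5* (-0.46 ± 0.32) and *Xbp1* (-0.19 ± 0.26) were not called. For B, *Herpud1* was the 1 member called (-0.83 ± 0.18, adjusted p = 0.0106), where 17.2% of genes were, and 3 were called without WT mouse 2 of day 10 (19.7% of genes). For M, none was called (1.19% of genes) and none had an unadjusted p under 0.05, where 1449 of 11530 genes did. DESeq2 also called 0.

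**Figure D3:**
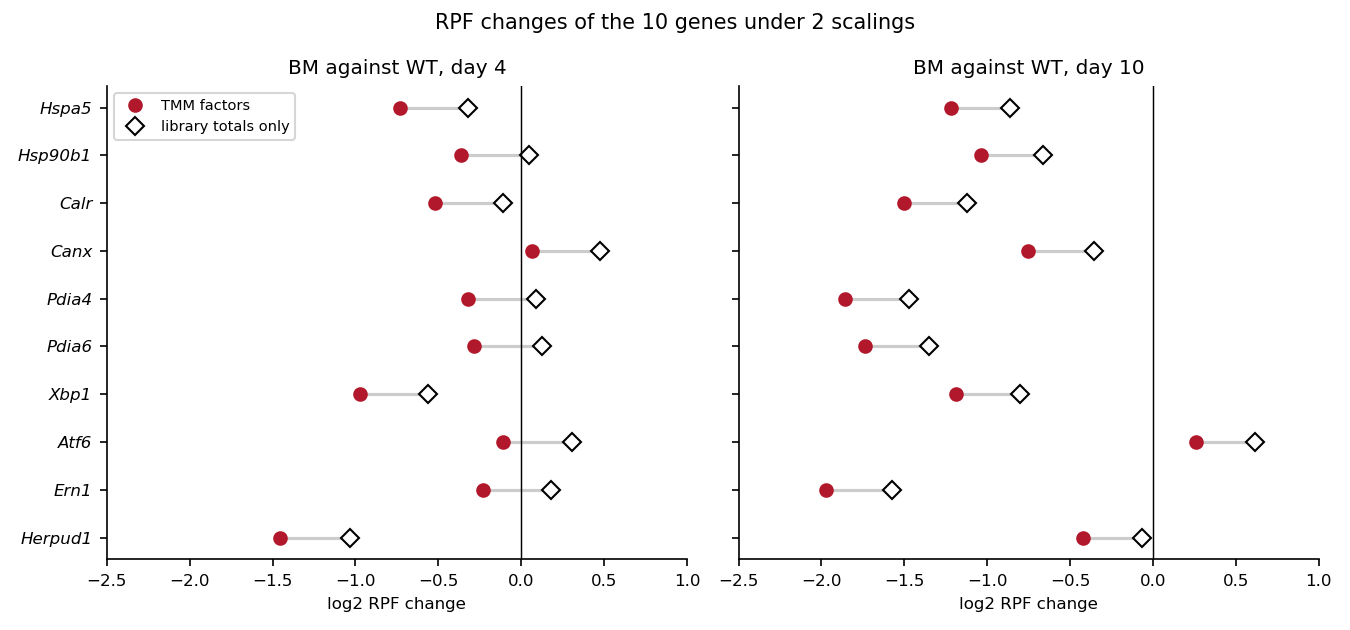
Log2 RPF change of BM against WT (horizontal axis) for the 10 genes at each day, with TMM factors (filled circles) and with library totals only (open diamonds). At day 4 *Hsp90b1*, *Pdia4*, *Pdia6*, *Atf6* and *Ern1* cross 0 between the scalings, and at day 10 the 7 members from *Ern1* (-1.97 and -1.58) to *Hsp90b1* (-1.04 and -0.66) that passed under both stay below 0.

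Cytoplasmic RNA of the same livers gave much the same picture, with exceptions. At day 4, RNA called 6 of the 10 in B, all lower (8.06% of genes), 6 lower and *Ern1* higher in M (23.6% of genes), and 6 lower and *Canx* higher in BM (42.0% of genes). The count in B was 1 without B mouse 2 and 3 without WT mouse 1 (4.77% and 5.56% of genes), and that in BM was 4 without BM mouse 3 or WT mouse 1 (37.1% and 36.3% of genes). *Ern1* RNA was at 64.0, 74.7 and 74.9 CPM in M against 63.2, 55.7 and 60.7 in WT (log2 change 0.29 ± 0.10, adjusted p = 0.0655), while its RPFs were not called. *Canx* RNA was at 968, 922 and 895 CPM in BM against 870, 806 and 790 in WT, all 3 above (0.22 ± 0.09, adjusted p = 0.0913). With library totals the RNA calls in BM were 6 higher and 2 lower (67.2% and 5.48% of all genes), and *Calr* (0.02), *Hsp90b1* (0.27), *Pdia4* (0.21) and *Pdia6* (0.29) were no longer below WT. *Hspa5* stayed below WT at -0.25, where it was not called, and *Xbp1* (-0.37) and *Herpud1* (-0.85) were called lower.

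At day 10, RNA called 4 of the 10 in B (15.6% of genes), 5 in M (15.4% of genes) and 7 in BM (45.9% of genes), all lower. Under library totals there were 2 lower in B, 3 lower and 1 higher in M, and 6 lower and 1 higher in BM. Of the 11296, 11143 and 11125 genes tested, 426, 316 and 1263 were then lower and 2218, 1880 and 5292 higher. In M the count was 3 without any 1 of the 6 mice (7.58% to 14.8% of genes). In BM, *Pdia4* RNA fell by 1.77 ± 0.21, *Pdia6* by 1.63 ± 0.17, *Ern1* by 1.50 ± 0.18, *Hspa5* by 1.49 ± 0.21 and *Calr* by 1.44 ± 0.14 on the log2 scale. *Hspa5* RNA had 632, 881 and 800 CPM in the BM mice against 1847, 2684 and 1940 in WT, without overlap. The count was also 7, all lower, when BM mouse 1 was left out (57.2% of genes). *Canx* RNA overlapped, at 702, 682 and 674 CPM in BM and 702, 728 and 702 in WT (-0.05 ± 0.13), and was at 0.34 with library totals. The effects of BM at the 2 days differed in RNA for 5 members (29.8% of genes), *Hspa5*, *Calr*, *Pdia4*, *Pdia6* and *Ern1*, all lower at day 10, and for 5 lower and 1 higher without BM mouse 1 (43.4% of genes). The effect of B differed for *Herpud1* (-0.86 ± 0.17, with 9.38% of genes called), and for 2 members without WT mouse 2 of day 10. That of M differed for none (1.19% of genes). For M, 0 of the 10 had an unadjusted p under 0.05, where 1161 of 11564 genes did, and DESeq2 called 0.

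Translation efficiency (TE), the RPFs of an mRNA relative to its RNA, was tested as the interaction of genotype and library type. None of the 10 genes was called in any of the 6 comparisons against WT, nor by DESeq2. Over all genes this fit, which does not pair the libraries of a mouse, called few, with 0.0488% (B), 0.99% (M) and 2.13% (BM) called at day 4 and 0.047%, 0.0% and 0.259% at day 10, in the same order. With the RPF and RNA library of each mouse joined in a replicate block, the shares were 0.283%, 2.71% and 6.27% at day 4 and 2.6%, 0.344% and 5.15% at day 10. An unadjusted p under 0.05 was found for *Ern1* in M at day 4 and for *Canx* in BM at day 10, and for no other member. In these 2 comparisons 745 of 10405 and 1058 of 10431 genes tested had one. The SE of a member's TE change was as large as 0.46, so a missing call does not show that TE was alike. For *Hspa5* log2 TE ran from 0.47 to 0.77 in WT and 0.53 to 0.72 in BM at day 4, and the fitted change was 0.04 ± 0.20. Log2 TE of *Xbp1* ran from -1.61 to -1.23 in WT at day 4. TE was not corrected for the length of the transcript or coding sequence, and *Xbp1* footprints were counted over 267 codons only. Its values are therefore not ranked between genes.

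*Ern1* TE was lower in each BM mouse of day 4 (0.14, 0.07 and 0.08) than in each WT mouse (0.41, 0.72 and 0.41). The fitted change was -0.44 ± 0.23 (adjusted p = 0.573), and with the replicate block it was -0.44 with an adjusted p of 0.0176, which passed. *Canx* TE in BM at day 10 was 0.53 in mouse 1 and -0.33 and -0.24 in mice 2 and 3, against 0.60, 0.74 and 0.83 in WT, all higher. The change was -0.70 ± 0.29 (adjusted p = 0.468), and the replicate block gave -0.75 with an adjusted p of 0.0843. Without BM mouse 1, TE changes were called for *Canx* (-1.01, adjusted p = 0.00206), *Ern1* (-0.76, 0.0578) and *Xbp1* (-0.53, 0.0652), all lower, and for *Atf6* (0.57, 0.0295), which was higher, where 21.5% of all genes were called against 0.259% with it. The other 6 members were not called with or without that mouse.

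**Figure D4:**
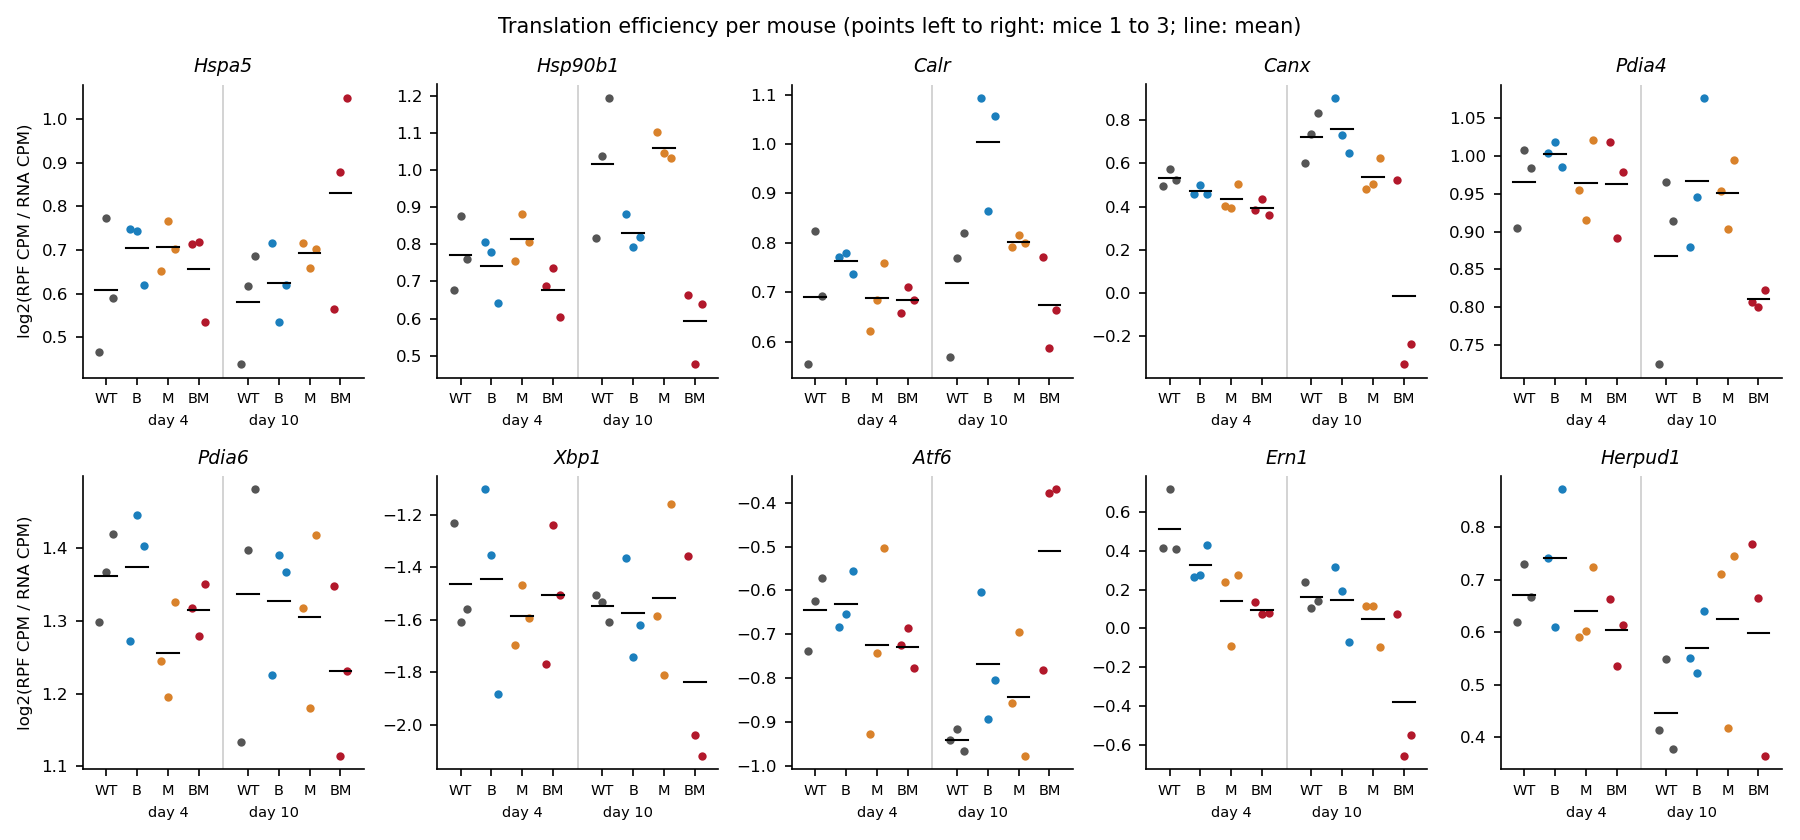
Log2 of RPF CPM over RNA CPM (vertical axis) of the 10 genes in each mouse; points from left to right are mice 1 to 3 of a group and the line is their mean. BM mice 2 and 3 of day 10 lie below 0 for *Canx* (-0.33 and -0.24) and *Ern1* (-0.66 and -0.55), apart from mouse 1 of that group.

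The wider pathway was described by 108 other ER genes in 6 lists. In BM against WT at day 10, 68 of the 107 tested in RPFs were lower and 5 higher, with a median log2 change of -0.70 beside 0.03 for all genes, of which 46.8% were called (22.3% lower and 24.5% higher). Library totals gave 41 lower and 12 higher (10.9% and 43.3% of all genes), and leaving out BM mouse 1 gave 75 and 11. At day 4, 50 of 106 were lower and 12 higher in BM (median -0.21), where 23.7% of all genes were lower and 27.1% higher. Library totals gave 16 lower and 50 higher (median 0.21), where 8.7% and 59.5% of all genes were, so the upward shift was shared by the bulk of genes. In M the counts were 44 lower and 7 higher of 107 at day 4 (19 and 21 with library totals) and 24 and 3 of 106 at day 10 (9 and 9). Of all genes, 33.2% and 19.3% were called in M at these days, with 44.3% and 33.8% under library totals. In B the counts were 31 and 1 of 106 (20 and 3) and 31 and 4 of 107 (8 and 16), beside 12.6% and 25.3% of all genes, with 15.2% and 39.0% under library totals. By list, the counts of BM at day 10 without mouse 1 were 16 lower and 1 higher for cochaperones, 13 and 1 for oxidative folding, 6 and 0 for the lectin cycle, 12 and 3 for ERAD, 23 and 0 for translocation and N-glycosylation, and 5 and 6 for UPR sensors and factors (66.2% of all genes). Only in BM at day 10 and B at day 4 did lower calls outnumber higher ones under both scalings.

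Among 17 cochaperones and folding helpers, 14 were lower and 1 higher in BM at day 4 (50.8% of all genes called), and 15 were lower and 0 higher at day 10 (46.8%). *Creld2* had a mean of 83.0 ± 42.6 RPF CPM (SD, n = 3, here and for the other named genes) in WT and 7.48 ± 4.45 in BM at day 10 (log2 change -3.47 ± 0.49, or -4.08 without BM mouse 1). *Hyou1*, a BiP cochaperone, went from 829 ± 219 to 113 ± 26.8 (-2.90 ± 0.26), and *Sdf2l1*, which works with BiP, from 79.0 ± 27.7 to 12.8 ± 5.09 (-2.64 ± 0.35). At day 4 the largest changes were in *Creld2* (-1.54 ± 0.23, in M), *Hyou1* (-1.16 ± 0.14, in M) and *Dnajb9* (-1.20 ± 0.16, in BM), a known target of spliced XBP1. With library totals the list had 6 lower and 3 higher at day 4 (68.2% of all genes called) and 13 and 1 at day 10 (54.2%).

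Of 16 genes of oxidative folding, 8 were lower and 3 higher in BM at day 4 (50.8% of all genes called), and 11 and 0 at day 10 (46.8%), against 3 and 8, and 8 and 1, with library totals (68.2% and 54.2%). *Ero1b*, which reoxidises disulfide isomerases, fell at both days, with log2 changes of -1.05 ± 0.09 and -2.28 ± 0.15. *Qsox1*, a sulfhydryl oxidase, fell by 1.85 ± 0.09 and *Pdia5* by 0.97 ± 0.09 at day 4. *Txndc5* had 160 ± 10.6 RPF CPM in WT and 218 ± 7.41 in BM at day 4, and 187 ± 13.1 and 54.0 ± 46.4 at day 10 (log2 change -1.82 ± 0.51). Its BM mice of day 10 were at 107, 31.6 and 23.2, the change was -2.79 without mouse 1, and the effects of BM at the 2 days differed by -2.25 ± 0.56 (adjusted p = 0.0117). *Prdx4* fell at day 10 by 1.85 ± 0.24. In the cycle of lectins and sugar trimming, 3 of 7 genes were lower and 1 higher at day 4, a share of calls near the 50.8% of all genes, and 5 and 0 at day 10 (46.8% of all genes), against 0 and 5, and 3 and 0, with library totals. *Mogs*, the glucosidase that starts the trimming, was higher in BM at day 4 (0.48 ± 0.09). At day 10 its BM mice had 51.2, 8.75 and 8.08 RPF CPM against 57.3, 64.4 and 48.7 in WT (-1.34 ± 0.64, not called), so that mice 2 and 3 were far below WT and mouse 1 was not. *Mcfd2* was lower in BM at day 4 (-0.49 ± 0.09) and *Uggt1*, the folding sensor of this cycle, was lower in M (-0.32 ± 0.07). *Ganab* (-1.23 ± 0.23), *Uggt1* (-1.02 ± 0.16) and *Man1b1* (-0.99 ± 0.39, or -1.64 without BM mouse 1) were lower in BM at day 10.

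For ERAD, 11 of 21 genes were lower and 0 higher in BM at both days, a share near that of all genes called (50.8% and 46.8%), and library totals gave 4 and 7 at day 4 and 5 and 3 at day 10 (68.2% and 54.2% of all genes). The ubiquitin ligase *Syvn1* (-0.90 ± 0.15) and its partner *Sel1l* (-0.90 ± 0.08) led at day 4 with *Derl2* (-0.75 ± 0.09). At day 10, *Derl2* was at -1.65 ± 0.17 and *Sel1l* at -1.52 ± 0.20, and *Derl3* had 1, 0 and 0 RPF counts in the BM mice against 36, 30 and 9 in WT, too few for a fold. In TE with all mice, *Ube2j1* was the 1 gene of the 6 lists called, lower in BM at day 4, and it is named after its value was seen. When BM mouse 1 was left out, 32 of the lists' genes were called lower and 3 higher in TE in BM at day 10, where 21.5% of all genes were called. Of 28 genes of translocation and N-glycosylation, 7 were lower and 2 higher in BM at day 4, a smaller share than the 50.8% of all genes, and library totals gave 1 and 20, where 59.5% of all genes were higher. At day 10, 21 were lower and 0 higher (46.8% of all genes called), and 9 and 0 with library totals (54.2%). *Spcs2*, of the signal peptidase, fell at both days (-0.79 ± 0.11 and -1.22 ± 0.28), *Sec61g* (-0.49 ± 0.09) and *Srprb* (-0.43 ± 0.12) fell in M at day 4, and *Rpn1* (-1.59 ± 0.30) and *Sec61a1* (-1.20 ± 0.28) fell in BM at day 10.

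The 19 other UPR sensors and factors did not move one way. In BM at day 10, 5 of 18 tested were higher and 5 lower, a share of calls near the 46.8% of all genes. Higher were *Ppp1r15a* (2.47 ± 0.60), *Atf3* (2.06 ± 0.40), *Trib3* (1.85 ± 0.28), *Mbtps2* (1.69) and *Rtcb* (0.67). Lower were *Chac1* (-1.54), *Creb3l2* (-1.06), *Creb3l3* (-0.96), *Atf6b* (-0.50) and *Mbtps1* (-0.48). Beside the first 3, these genes are named after their values were seen. *Ppp1r15a*, *Atf3*, *Trib3* and *Chac1* are all known targets of the branch downstream of PERK. Of these, *Chac1* alone was called lower, on few footprints, and the others higher. *Atf4*, the central factor of the branch, was not called (-0.11 ± 0.49), and *Ddit3*, also of this list, was not tested. *Mbtps1* and *Mbtps2* encode the proteases that cut ATF6 in turn, and they too were called in opposite directions. *Mbtps1* (-0.10) and *Atf6b* (-0.13) were not called with library totals. *Rtcb* encodes the ligase that joins spliced *Xbp1*. Footprints on *Ppp1r15a*, *Atf3*, *Trib3* and *Chac1* were few. *Atf3* was at 1.57 ± 0.55 RPF CPM in WT, 6.73 ± 2.89 in BM and 10.1 ± 5.71 in B. *Trib3* was at 2.12 ± 0.74 in WT and 7.80 ± 0.81 in BM. *Chac1* had 18, 28 and 26 RPF counts in the WT mice and 14, 9 and 13 in BM. *Ppp1r15a* had 4, 4 and 9 RPF counts in the WT mice and 25, 53 and 55 in BM, while its RNA was at 9.67, 8.23 and 8.36 CPM in WT and 9.50, 13.1 and 16.2 in BM. At day 4, 5 of 17 were higher and 7 lower in BM (50.8% of all genes called), with *Atf3* at 1.73 ± 0.36 and *Chac1* at -1.31 ± 0.37, and *Trib3* was higher in M (1.42 ± 0.36). Library totals gave 7 higher and 3 lower at day 10 (54.2% of all genes called), and 7 and 2 at day 4 (68.2%).

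**Figure D5:**
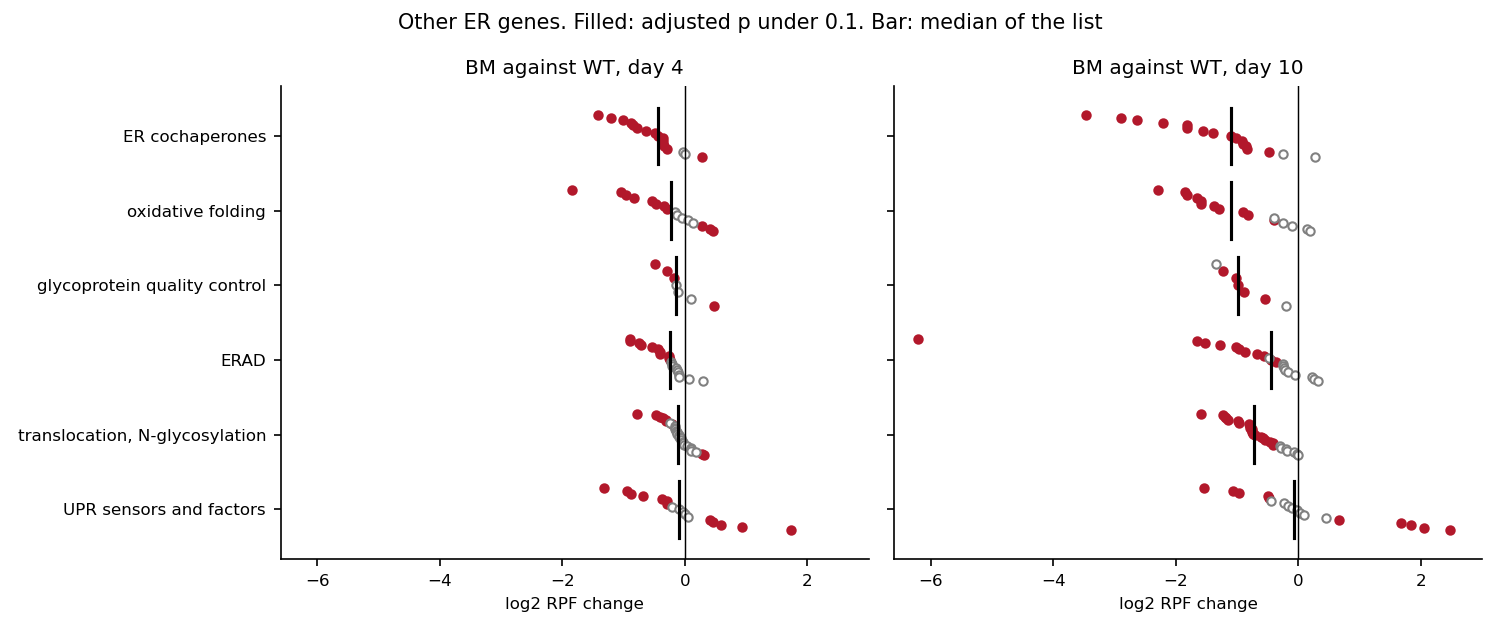
Log2 RPF change of BM against WT (horizontal axis) for each tested gene of the 6 other ER lists at day 4 and day 10; filled points passed an adjusted p under 0.1 and the black bar is the list's median. At day 10 the medians of the first 5 lists lie between -1.10 and -0.44, and that of the UPR sensors and factors is at -0.07.

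Genes with an ERSE in their promoter were counted as well. Of the 32 such genes beside the 10, 23 were in the RNA tables, 5 of them also in the lists above, and 14 were tested in BM against WT at day 10. Of these, 8 were lower and 1 higher in RPFs (median -1.05), where 46.8% of all genes were called, and 10 and 1 without BM mouse 1 (66.2% of genes). Among the 8 were the 5 of the lists, *Creld2*, *Derl3*, *Dnajc3*, *Ero1b* and *Syvn1*, and the higher one was *Acnat2*, with *Dnajc3* and *Acnat2* named after their values were seen. Library totals gave 7 lower and 2 higher, where 10.9% of all genes were lower and 43.3% higher. At day 4 the counts were 6 and 2 (4 and 4 with library totals), a share of calls near the 50.8% of all genes.

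Among the genes whose RPF levels went most like those of *Hspa5* over the 24 mice, out of 6745 genes with a mean of at least 10 RPF CPM, were *Manf* (Pearson r of log2 CPM 0.95), *Uso1* (0.881), *Dnajb11* (0.88), *Gmppb* (0.876), *Sec24d* (0.873), *Uap1* (0.865) and *Syvn1* (0.864). *Manf* and *Dnajb11* encode ER luminal proteins, and *Uso1* and *Sec24d* serve transport from the ER to the Golgi. With the mean of each group taken out, *Manf* was still at 0.894 and the others named were between 0.519 and 0.736. Among the 10 genes themselves, *Hspa5* went most with *Hsp90b1* (0.915, and 0.724 with group means taken out). The mice share genotypes and days, so these values describe likeness only.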

How the data were processed

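RPFs and cytoplasmic RNA of 24 livers (4 genotypes, 2 days, 3 mice each) were analysed, with genotype, day and replicate number from the sample labels. The authors aligned RPF reads of 30 to 38 nt to the most abundant transcript of each gene of GENCODE vM27 (GRCm39), removed duplicates by molecular identifiers, and deposited raw counts of the reads in the coding sequence, leaving out 20 codons at its start and 10 at its end. For RNA, the authors used Bowtie2 2.3.5.1 and RSEM 1.3.3 and deposited expected counts per isoform, summed here per gene and rounded. The deposited TPM values were tabulated for the members and support no result in the text. Levels per codon used coding lengths of GENCODE vM39. The RNA of 20614 of 20622 genes matched a symbol.

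The tests used edgeR 4.0.16 under R 4.3.3 (quasi-likelihood F test, TMM, filterByExpr with minimum count 10 and minimum total 15, only the groups compared, Benjamini-Hochberg over all genes, adjusted p under 0.1, the threshold the study used for TE). The study itself used DESeq2, run here as 1.42.0 as an alternative. No library batch is given in the labels. Each mouse gave 1 RPF and 1 RNA library, so p-values of the RPF and RNA tests measure the spread between mice. The main TE fit treats the 2 libraries of a mouse as independent, so its p-values do not measure the spread of TE between mice. The TE fit with the replicate block does pair them. No 2 libraries were identical. The steps were tested on simulated data. The members, gene lists and motifs were chosen with earlier results of these data known. Other named genes were, per list, at most 3 with the largest called RPF change in M or BM at each day, and the 8 most like *Hspa5*, of which 1 is not reported here. Genes named outside this rule, to show who makes up a small count, are marked in the text as named after their values were seen. Deviations from group means of the RPF and RNA library of a mouse correlated at 0.312 to 0.688, so they pair by mouse.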

Additional observations from a re-analysis of the deposited data

Results flagged for a closer look

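Tests of the difference of an effect between the days passed for 14 values. For BM in RPFs, the log2 effect against WT was lower at day 10 than at day 4 for *Ern1* (-1.72), *Pdia4* (-1.51), *Pdia6* (-1.43), *Calr* (-0.95), *Canx* (-0.79) and *Hsp90b1* (-0.65), and higher for *Herpud1* (1.06). For BM in RNA it was lower for *Ern1* (-1.69), *Pdia4* (-1.45), *Pdia6* (-1.39), *Calr* (-0.92) and *Hspa5* (-0.70). For B, *Herpud1* was lower at day 10 in RPFs (-0.83) and in RNA (-0.86). *Herpud1* therefore moved in opposite directions between the days in B and in BM, and that opposition itself was not tested. In the RPFs of BM at day 10, *Herpud1* was at 108 CPM in mouse 1, close to the B mice, and at 239 and 215 in mice 2 and 3.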

How the results depend on the processing

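The members called in each comparison were counted again under RLE normalization, DESeq2, no low-count filter, a threshold of 0.05, 1 fit over all mice, a replicate block, 1 isoform per gene for RNA and, chosen after seeing the data, library totals only. One fit over all mice gave 1 call in B at day 4, 6 in M at day 10, 1 in BM against M at day 4 and 0 for the B effect between days in RPFs. In RNA it gave 3 in B at day 4 and 0 for the B effect, and in TE 1 in BM at day 10. The genes called among all tested moved too, to 572 from 1388, 2273 from 2177, 2749 from 4334 and 1279 from 1994 in RPFs, 472 from 886 and 1000 from 1081 in RNA, and 778 from 27 in TE, in the same order. Library totals gave 1 in B and 1 in M at day 10, 5 in BM against B and 8 in BM against M at day 4 in RPFs, and 3 and 2 in B at days 4 and 10 in RNA. In the same order, all genes called moved to 4472 from 2899, 3820 from 2177, 6442 from 5080 and 5510 from 4334 in RPFs. In RNA they moved to 1816 from 886 and 2644 from 1761. DESeq2 gave 5 in M at day 10 and 2 between the WT days in RPFs. The threshold of 0.05 gave 1 in M and 4 in BM against M at day 10 and 4 for the BM effect in RPFs, and 4 in BM at day 4 and 3 in M at day 10 in RNA. No filter gave 2 for the B effect in RNA. For DESeq2, the threshold of 0.05 and no filter, the share of all genes called is not given here. Those counts therefore do not tell a change in the members from a change in all genes. The replicate block, by replicate number, gave 3 in M at day 10 in RNA, and here too the share of all genes is not given. In TE the block was the mouse, which joins its RPF and RNA library, and it gave 1 in BM at each day. Replicate numbers did not pair mice across groups, since 0 of 56 pairs of groups had all 3 correlations above 0.1. This bears on the block by replicate number, and not on the block by mouse in TE. The cause of these changes was not tested.

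Library totals turned the sign of 58 of the 300 log2 changes of the members, 13 of which were called with either scaling. In RPFs those 13 were *Canx* in M at day 4 (0.20), *Hsp90b1* (0.049), *Pdia6* (0.12), *Pdia4* (0.086) and *Atf6* (0.30) in BM at day 4, and *Calr* in BM against B at day 4 (0.051). In RNA they were *Pdia6* in M (0.071), *Calr* (0.016), *Hsp90b1* (0.27), *Pdia6* (0.29), *Pdia4* (0.21) and *Atf6* (0.51) in BM at day 4, and *Canx* in BM at day 10 (0.34). No other alternative turned the sign of a change that was called with it or without it.

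Leaving out 1 mouse at a time gave 3 to 6 calls in B at day 4, 0 to 4 in M at day 10, 0 to 1 between the WT days, 1 to 3 and 4 to 9 in BM against M at days 4 and 10, 1 to 3 for the B effect and 4 to 8 for the BM effect in RPFs. It gave 1 to 6 in B and 4 to 7 in BM at day 4, 3 to 3 in M at day 10 and 1 to 2 for the B effect in RNA, and 0 to 4 in BM at day 10 in TE. The share of all genes called moved with the mouse left out as well, where it is given above. These ranges therefore do not describe a change in the members alone. With 3 mice a group, and as few as 145 *Ern1* footprints in a library, small changes could not be resolved.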
